A study of Homo sapiens with 6 samples.

Results

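The genes of the cytosolic ribosomal proteins were followed in IMR90 cells that received an empty vector or ARID1B cDNA. They were chosen by symbol: RPL or RPS with a number and, where present, an A or X, and in addition RPLP0, RPLP1, RPLP2 and RPSA. The rule found 78 of the 57232 listed genes, which carry 77 symbols, 46 of the large and 31 of the small subunit. The symbol RPL26 has 2 rows. The rule used names only and no measured value.

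IMR90 is a line of human fetal lung fibroblasts with a limited lifespan in culture, and ARID1B is a DNA-binding subunit of the SWI/SNF chromatin remodelling complex. The series asked what ectopic ARID1B does to gene expression in these cells. The vector group (vector) and the ARID1B group (labelled ARID1b) each held 3 libraries, described as biological replicates. All 6 came from cells at passage 13 in DMEM with 10% FBS. The cells were under puromycin, at 0.8 ug, until day 4 and were taken 6 days after infection. Infection and selection are thus shared by both groups, and of the conditions described only the cDNA differs. The infected cells were used as a selected population, and mRNA of whole cultures was sequenced: fewer cells of a kind and less RNA per cell cannot be told apart. Values are FPKM, in which the fragments of a gene are divided by its length in kilobases and by the depth of the library.

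The cytosolic ribosome joins ribosomal RNAs with a fixed set of proteins, most of them present in a single copy, in a large subunit that forms peptide bonds and a small subunit that reads the mRNA. The mRNAs of these proteins are abundant in dividing cells, and most begin with a C followed by a run of pyrimidines, the 5′ terminal oligopyrimidine (TOP) tract, through which mTOR signalling and LARP1 set their translation and stability. Several of the proteins also act outside the ribosome, RPL5 and RPL11 as binders of MDM2 among them.

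The start sequences show what most of these genes share. RefSeq promoter sequences (GRCh38.p14, a later build than the hg19 of the deposited values) were at hand for 62 of the member symbols, with 77 annotated starts. A C exactly at the start with at least 4 pyrimidines (C or T) after it, searched on the sense strand, stood at 59.7% of the member starts and at 3.95% of the 35039 other starts. With a shift of up to 2 bases either way the shares were 66.2% and 10.4%. The 28 bases around 10 starts follow, 14 before the start and 14 from it on, in the direction of transcription, with the run that begins at the start in capitals. The first 8 are members of different place and change, and RPS28 and RPS26 are shown because their annotated start is not a C.

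RPLP0, chr12:120201098-120201125, minus strand: cgcgggcgcgaggcCCTTCTCTCgccag
RPLP2, chr11:809953-809980, plus strand: tgcgtcggcgccttCCTTTTCCTCCCTg
RPL13A, chr19:49487594-49487621, plus strand: gacaaaacctcctcCTTTTCCaagcggc
RPL28, chr19:55385918-55385945, plus strand: cgcccctcgccttcCTCTTTCCgtctca
RPS3, chr11:75399504-75399531, plus strand: cccgcgagccacttCCTTTCCTTTCagc
RPS6, chr9:19380223-19380250, minus strand: agcggaagttggccCTCTTTTCCgtggc
RPS12, chr6:132814555-132814582, plus strand: cgtgcggatgaggcCTCTTTCCCTgccg
RPS14, chr5:150449726-150449753, minus strand: cgccccctcccactCTCTCTTTCCggtg
RPS28, chr19:8321482-8321509, plus strand: ccccgaagcacgtgactcctctccgcca
RPS26, chr12:56041904-56041931, plus strand: agacacataacctcgattttcttccgcc

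The run in RPLP2 is 13 bases long and that in RPL13A 7. RPS28 starts with an A in this annotation, followed directly by pyrimidines, and RPS26 starts with a G. These matches describe letters of the reference and say nothing of which start the cells used.

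The check of the labels came first. ARID1B had 2.29, 1.31 and 2.05 FPKM in the vector libraries, in the order of replicates 1, 2 and 3 that is kept from here on, against 32.5, 21.0 and 28.3 FPKM in the ARID1B libraries. Every ARID1B library lay far above every vector library. Library totals, read from the steps of the FPKM values, lay between 63386813 and 91924514 reads or fragments. The 10 fibroblast markers summed to between 2177 and 3186 FPKM per library, with VIM, COL1A1 and COL1A2 high in all 6. They were not uniform: S100A4 stayed at or below 9.55 FPKM. COL3A1 was at 38.3 FPKM in vector replicate 2, against 282 and 243 FPKM in vector replicates 1 and 3. COL1A1, COL1A2, FN1, DCN, LUM and PDGFRB were also lowest of the vector group in replicate 2, while VIM, THY1 and S100A4 were highest there. The epithelial, endothelial and blood markers summed to at most 0.430 FPKM, and KRT5 was listed at 0 throughout. Smooth muscle markers summed to at most 28.9 FPKM, highest in vector replicate 2. Over all genes, too, that library lay apart: the leading principal component (63.8% of the variance) placed it at 48.5 and the rest between -20 and 3.6. Replicate 3 lay between replicates 1 and 2 for 85.0% of the genes tested in the vector group and for 69.2% in the ARID1B group, so the 3 libraries of a group may not be fully independent, which would make the p-values too small.

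Ribosomal protein genes were lower as a set in the ARID1B libraries, by little and in nearly all members, and no single member passed the test over all genes. The 74 members with a mean of at least 1 FPKM were tested with limma on log2(FPKM + 1), together with all 10416 genes at that level. All 74 estimates were negative, against 52.4% of all genes tested. They ran from -0.62 to -0.08 with a median of -0.34, or 20.8% less, while the median over all genes was -0.02. For 54 of the 74 members (73.0%) every ARID1B library lay below every vector library, against 11.1% of all genes, and for 0 members every ARID1B library lay above, against 9.44%. No member had an adjusted p under 0.05 in limma (0 of 74, lowest adjusted p = 0.306), where 0.0288% of all genes passed as higher and 0% as lower. At an unadjusted p under 0.05, 35 of the 74 members (47.3%) were lower, against 5.94% of all genes, and none was higher, against 4.64%. limma's voom on the recovered reads also called 0 members, with a lowest adjusted p of 0.311. Since members of one complex are not independent replicates, these counts describe the set and carry no p of their own.

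**Figure D1:**
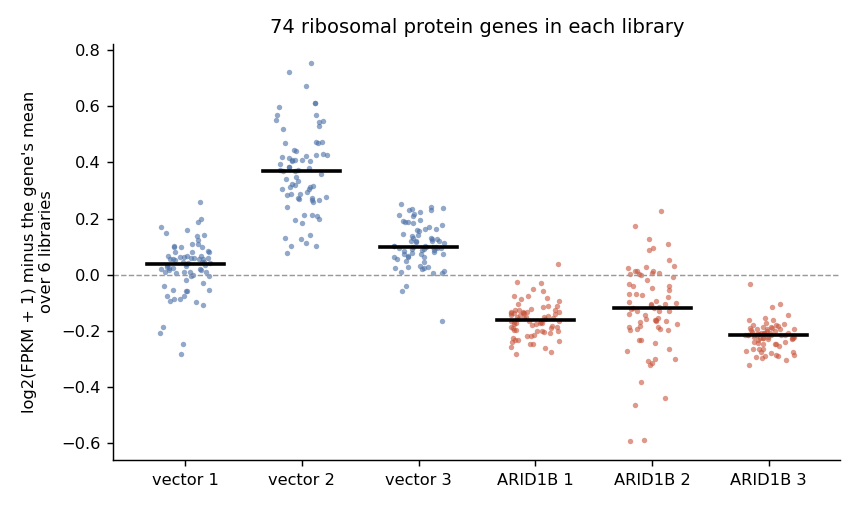
Each point is 1 of 74 ribosomal protein genes in 1 library, as log2(FPKM + 1) minus the mean of that gene over the 6 libraries, and the bars mark the medians. The medians are 0.04, 0.37 and 0.10 in vector replicates 1, 2 and 3 and -0.16, -0.12 and -0.22 in ARID1B replicates 1, 2 and 3, with vector replicate 2 highest and ARID1B replicate 2 most spread.

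Vector replicate 2 held the highest value of all 6 libraries for 68 of the 74 members and was a median of 1.21 times the mean of the other vector libraries. Without it the median change of the members was -0.23 (all genes -0.01), 72 of 74 estimates were negative (52.2% of all genes), and 0 members passed, the lowest adjusted p of limma being 0.0737, while 35 (47.3%) were lower at an unadjusted p under 0.05, against 13.7% of all genes. Over all genes 1.20% then passed as higher and 1.91% as lower. The overlapping members ranged from RPS15 (-0.57) and RPL35 (-0.32) to RPS10 in the fit of all libraries. The same number of members, 54, as in that fit, had every ARID1B library below every remaining vector library, where 23.9% of all genes did. RPS26 then stood at 0.00 and RPS10 at 0.18, and the other 72 kept a negative estimate. With both libraries numbered 3 left out the median was -0.34 and 0 members passed.

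**Figure D2:**
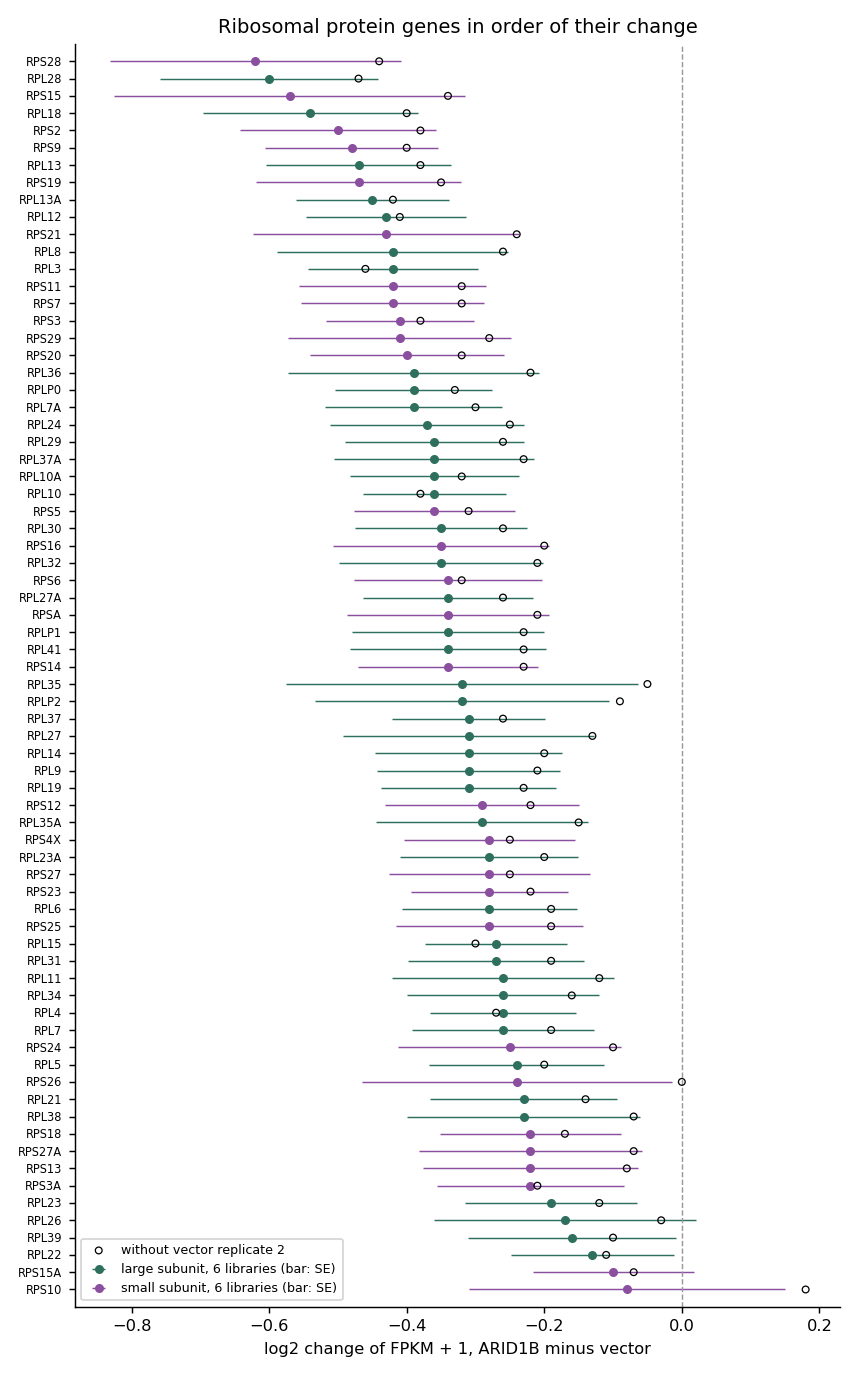
The log2 change of FPKM + 1, ARID1B minus vector, of 72 of the 74 members in order. Filled points with bars give the limma estimate ± SE from 6 libraries, coloured by subunit, and open circles the estimate without vector replicate 2. All filled points lie below 0, from RPS28 at -0.62 to RPS10 at -0.08, and most open circles lie nearer to 0.

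The members' share of the summed FPKM of all genes separated the groups by more than the spread within them. It was 5.64%, 5.86% and 5.80% in vector replicates 1, 2 and 3 and 4.57%, 4.59% and 4.44% in ARID1B replicates 1, 2 and 3, so that vector replicate 2 did not stand out on this scale. The means were 5.77% ± 0.114 and 4.53% ± 0.0814 (SD, n = 3), a difference of -1.24 percentage points. Mitochondrially encoded genes, which enter the same sum, took 16.3% to 19.7% of it in the vector group and 19.7% to 27.8% in the ARID1B group. With those genes left out of the sum the members' shares were 6.74%, 7.31% and 6.97% against 5.69%, 6.35% and 5.62%, and the groups still did not overlap. Counted in reads, the members took 4.67%, 5.65% and 4.88% of the vector libraries and 3.97%, 4.15% and 3.83% of the ARID1B libraries.

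The median change was -0.32 for the 44 large-subunit and -0.34 for the 30 small-subunit members tested. The ratio of summed FPKM, large over small, was 1.27 ± 0.0153 in the vector group and 1.27 ± 0.0252 in the ARID1B group (SD, n = 3).

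The stalk proteins, which recruit elongation factors to the large subunit, come first by role. RPLP0, the scaffold of the stalk, was at 135, 154 and 137 FPKM in the vector libraries and at 110, 108 and 106 FPKM in the ARID1B libraries. The groups did not overlap, and the log2 change was -0.39 ± 0.114 (SE), with an adjusted p of 0.349 in limma. RPLP1, one of its acidic partners, was at 188, 244 and 203 against 163, 175 and 160 FPKM, a log2 change of -0.34. RPLP2, the other partner, was at 84.8, 148 and 99.9 against 87.6, 88.1 and 83.4 FPKM. For RPLP2 only vector replicates 2 and 3 lay above all ARID1B libraries, and its log2 change of -0.32 became -0.09 without vector replicate 2.

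Members near the tRNAs and the peptidyl transferase centre were lower in every ARID1B library in 3 of 4 cases, against 73.0% of all members and 11.1% of all genes, with a median change of -0.39. RPL3, whose loop reaches toward that centre, was at 186, 170 and 183 FPKM in the vector libraries and at 128, 148 and 127 FPKM in the ARID1B libraries. It is among the few members in which vector replicate 2 was the lowest of its group, and its log2 change went from -0.42 to -0.46 without that library. RPL10, one of the last proteins to join the large subunit, was at 91.1, 89.9 and 96.0 against 73.4, 72.1 and 70.1 FPKM. The vector libraries of RPL10 lay close together and clear of the ARID1B libraries, for a log2 change of -0.36 ± 0.104 (SE, adjusted p = 0.349 in limma).

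Along the peptide exit tunnel 4 of the 7 members tested were lower in every ARID1B library, a smaller share than the 73.0% of all members and above the 11.1% of all genes, with a median change of -0.27. RPL4, which lines the tunnel with a long loop, was at 153, 150 and 152 FPKM in the vector group and at 127, 132 and 122 FPKM in the ARID1B group. RPL39, a very small protein of the tunnel wall, was at 148, 165 and 148 against 124, 164 and 127 FPKM. ARID1B replicate 2 reached the vector range for RPL39, the groups overlapped and the log2 change was -0.16.

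RPL5 and RPL11 travel with 5S rRNA. RPL5 was at 249, 277 and 256 FPKM in the vector libraries and at 208, 244 and 209 FPKM in the ARID1B libraries, without overlap. RPL11 was at 282, 384 and 295 against 257, 288 and 251 FPKM. For RPL11 ARID1B replicate 2 exceeded vector replicate 1, and the log2 changes of RPL5 and RPL11 were -0.24 and -0.26.

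Other large-subunit members named by role include RPL13A, RPL22 and RPL41. RPL13A, which can leave the ribosome for the GAIT complex that silences inflammatory mRNAs, was at 145, 157 and 149 FPKM in the vector libraries and at 112, 115 and 104 FPKM in the ARID1B libraries. Its groups were far apart for their spread, and its log2 change of -0.45 ± 0.111 (SE) had the lowest adjusted p of the members (0.306 in limma). RPL22, an RNA-binding protein that the ribosome can do without, was at 66.8, 68.7 and 64.8 against 56.9, 68.0 and 58.9 FPKM. The groups of RPL22 overlapped at a log2 change of -0.13. RPL41, the shortest of the proteins, was at 281, 362 and 298 against 261, 242 and 237 FPKM, with a log2 change of -0.34 and no overlap.

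On the small subunit, 3 of 5 members on the mRNA entry and decoding side were lower in every ARID1B library (73.0% of all members, 11.1% of all genes), with a median change of -0.41. RPS3, which guards the entry of the mRNA channel and also acts in DNA repair and NF-κB signalling, was at 93.5, 102 and 96.5 FPKM in the vector libraries and at 73.1, 75.7 and 70.0 FPKM in the ARID1B libraries. The groups of RPS3 did not overlap, and its log2 change was -0.41 ± 0.108 (SE, adjusted p = 0.318 in limma). RPS15, near the decoding site, had the third lowest log2 change of all members, -0.57, from 38.3, 68.9 and 45.9 against 39.7, 26.5 and 34.1 FPKM. Here vector replicate 1 lay below ARID1B replicate 1, the SE was 0.255 and the change without vector replicate 2 was -0.34. RPS27A, made as a fusion with ubiquitin, was at 104, 147 and 111 against 102, 108 and 96.6 FPKM, also with overlap and at a log2 change of -0.22.

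On the mRNA exit side 3 of 4 members were lower in every ARID1B library, beside the same 73.0% of all members and 11.1% of all genes. RPS14, the gene whose loss marks the 5q- syndrome and the reference gene of quantitative PCR in the study's methods, was at 88.0, 109 and 87.9 FPKM in the vector libraries and at 77.2, 74.7 and 72.2 FPKM in the ARID1B libraries. All ARID1B libraries of RPS14 lay below all vector libraries, at a log2 change of -0.34 ± 0.131 (SE, adjusted p = 0.449 in limma). Relative to the whole library it was thus lower by about as much as the median member in this fit. After a correction of each library for GC content and length, described below, its change was -0.11, beside a members' median of -0.23. RPSA, which doubles as the laminin receptor, was at 139, 188 and 148 against 127, 123 and 122 FPKM, a log2 change of -0.34. RPS26, which touches the mRNA upstream of the start codon, was at 77.8, 138 and 87.5 against 88.0, 79.0 and 80.8 FPKM, and only vector replicate 2 lay clearly apart.

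RPS6, the classical substrate of S6 kinase below mTOR, was at 280, 311 and 317 FPKM in the vector libraries and at 228, 269 and 220 FPKM in the ARID1B libraries. The groups did not overlap, at a log2 change of -0.34 ± 0.136 (SE, adjusted p = 0.456 in limma). RPS4X, an X-linked member, was at 298, 317 and 300 against 237, 277 and 238 FPKM, a log2 change of -0.28 without overlap. RPS18, a member of the head of the small subunit, was at 308, 346 and 314 against 258, 309 and 263 FPKM, and ARID1B replicate 2 slightly exceeded vector replicate 1. RPS19, the gene most often mutated in Diamond-Blackfan anemia, was at 134, 181 and 149 against 118, 105 and 109 FPKM, a log2 change of -0.47 without overlap.

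**Figure D3:**
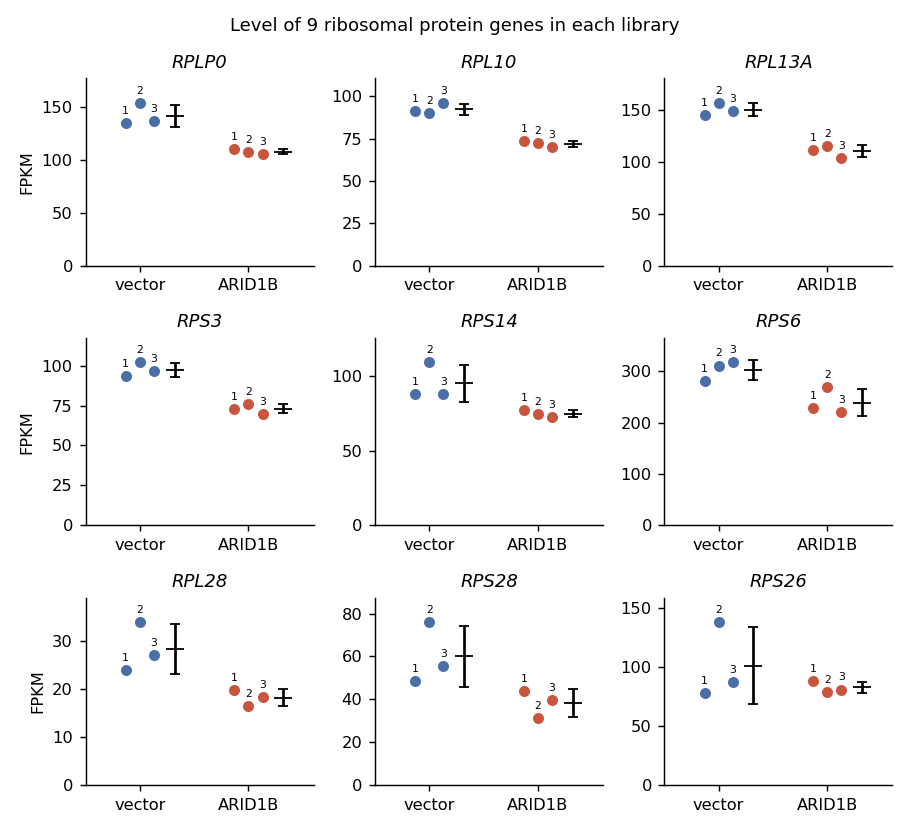
FPKM of 9 members in each library, numbered by replicate, with axes from 0, and the mean ± SD of each group (n = 3) at the right of its points. In all panels but that of RPS26 the ARID1B points lie below the vector points, and vector replicate 2 is far above the others for RPS28 and RPS26.

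At the lower end of the order stood RPS28, a small protein of the mRNA exit side, at 48.7, 76.1 and 55.5 FPKM in the vector libraries and 44.0, 31.2 and 39.8 FPKM in the ARID1B libraries. RPL28, of the large subunit, followed at 24.0, 34.0 and 27.1 against 19.9, 16.4 and 18.3 FPKM. In both genes vector replicate 2 was the highest and ARID1B replicate 2 the lowest of all libraries, and the groups did not overlap. Their log2 changes were -0.62 ± 0.212 and -0.60 ± 0.159 (SE). RPL18 at -0.54, also a protein of the large subunit, had the same libraries at its extremes, with vector replicate 2 highest at 48.0 FPKM and ARID1B replicate 2 lowest at 24.8 FPKM.

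At the upper end stood RPS10 (-0.08), RPS15A (-0.10), RPL22 (-0.13), RPL39 (-0.16) and RPL26 (-0.17), in all of which the groups overlapped. RPL26, of the large subunit, was at 7.12, 9.89 and 7.11 FPKM in the vector libraries and 6.05, 8.87 and 6.21 FPKM in the ARID1B libraries. RPS15A, of the small subunit, was at 7.41, 7.81 and 7.25 against 6.57, 7.96 and 6.33 FPKM. In RPL26 and RPS15A the libraries numbered 2 were the highest of both groups. RPS10, RPS15A, RPL22 and RPL26 each overlap another protein-coding gene on the same strand, a limit described below. Neighbours in the order differed by far less than their SE, which ran from 0.117 for RPS15A to 0.230 for RPS10.

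The members with the highest mean FPKM were RPS12, RPS27, RPS18, RPL11 and RPL41. RPS12, of the small subunit, was at 694, 829 and 737 FPKM in the vector libraries and 576, 681 and 585 FPKM in the ARID1B libraries. RPS27, a zinc-finger member, was at 357, 390 and 381 against 287, 364 and 282 FPKM, where ARID1B replicate 2 passed vector replicate 1. These levels cannot be set against each other as amounts of mRNA. The gene length behind the FPKM, found from their steps, ran from 929 bp for RPS12 to 15858 bp for RPL28 and was longer than the longest GENCODE v29 transcript for 72 members, so the FPKM of a member depends on that length as well as on its reads.

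4 of the 78 members were below 1 FPKM and were not tested. RPL17 was at 0.509, 1.25 and 0.585 FPKM in the vector group against 0.788, 0.574 and 0.762 FPKM in the ARID1B group, and RPL36A at 0.504, 0.980 and 0.614 against 0.457, 0.478 and 0.423 FPKM. The second row of RPL26 stayed at or below 0.0358 FPKM in all 6 libraries. RPL17 and RPL36A share their locus with a readthrough gene in GENCODE v29 (RPL17-C18orf32 and RPL36A-HNRNPH2), and so does RPS10, which at 1.31, 3.17 and 1.51 against 1.89, 1.57 and 1.75 FPKM just passed the level for testing (RPS10-NUDT3). Another protein-coding gene also overlaps the tested row of RPL26 (AC135178.2), RPS15A (AC138811.2), RPL22 (AL031847.2), RPS13 (PIK3C2A) and RPL36 (HSD11B1L) on the same strand. How reads of such shared stretches were assigned was not tested, and the values of all these genes are uncertain. Retrocopies are a further limit: 627 rows carry names of pseudogenes of members, 437 of them at 0 in all libraries and 29 at 1 FPKM or more. Together they held 0.131% ± 0.00794 of the summed FPKM in the vector and 0.103% ± 0.00231 in the ARID1B group (SD, n = 3). Those of RPS2, whose 17 rows summed to a mean of 74.0 FPKM beside 124 FPKM for the gene itself, were the largest sum of any member.

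The size of the change went with GC content. Over the 74 members the Spearman correlation of the log2 change with the GC content of the principal transcript was -0.61 with all libraries and -0.42 without vector replicate 2, a description over genes that share the same 6 libraries. The 25 members with the highest GC (median 56.6%) had a median change of -0.42 and the 25 with the lowest (median 45.0%) of -0.28. Over all genes tested, the level relative to the gene's mean rose with GC in vector replicate 2 (Spearman 0.45) and fell with it in ARID1B replicates 2 (-0.56) and 3 (-0.54), with -0.18, 0.22 and 0.04 in vector replicates 1 and 3 and ARID1B replicate 1. After a correction of each library for GC content and length, the median change of the members was -0.23 (all genes -0.02), 72 of 74 estimates were negative (55.5% of all genes), 0 members passed (0.0883% of all genes as higher and 0% as lower) and 33 (44.6%) were lower at an unadjusted p under 0.05, against 4.94% of all genes. Under the same correction a trend with length appeared: the Spearman correlation of the members' log2 change with the length of the principal transcript was -0.03 before it and -0.43 after it, and RPL37, with a transcript of 7686 bp, went from -0.31 to -0.51. The Spearman correlation of the members' log2 change with GC content was 0.25 after the correction, opposite in sign to that before it. The median was then -0.23 for the GC-richest and -0.26 for the GC-poorest of the members, and RPLP2 (0.02) and RPS10 (0.12) turned positive.

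**Figure D4:**
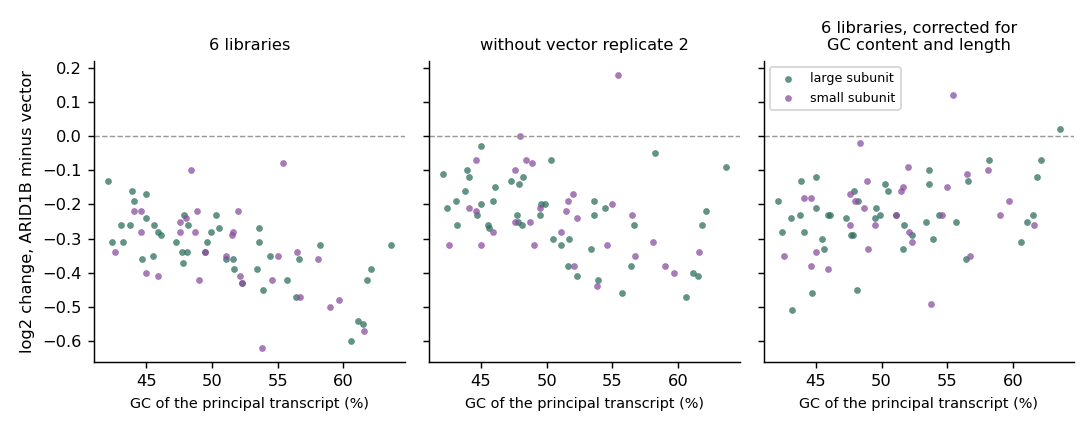
The log2 change of each of 74 members, ARID1B minus vector, against the GC content of its principal transcript, from all libraries, without vector replicate 2, and after correction of all libraries for GC content and length. The points slope down in the first panel (Spearman -0.61), less in the second (-0.42) and weakly up in the last (0.25). Nearly all stay below 0 in each. With transcript length, not plotted, the correlation went from -0.03 to -0.43 under the correction.

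With vector replicate 2 left out and the same correction, 2 members passed in limma, both lower: RPL28 at -0.35 (adjusted p = 0.0431) and RPL10 at -0.40 (adjusted p = 0.0469). Over all genes 1.96% passed as lower in that fit and 1.79% as higher, so that the members' 2.70% was near the share of all genes. At an unadjusted p under 0.05, 42 of 74 members (56.8%) were lower there, against 15.8% of all genes, and 1 (RPS10, named after its value was seen) was higher, against 11.8%. The median change was -0.25, and 71 of 74 estimates were negative, against 50.8% of all genes.

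**Figure D5:**
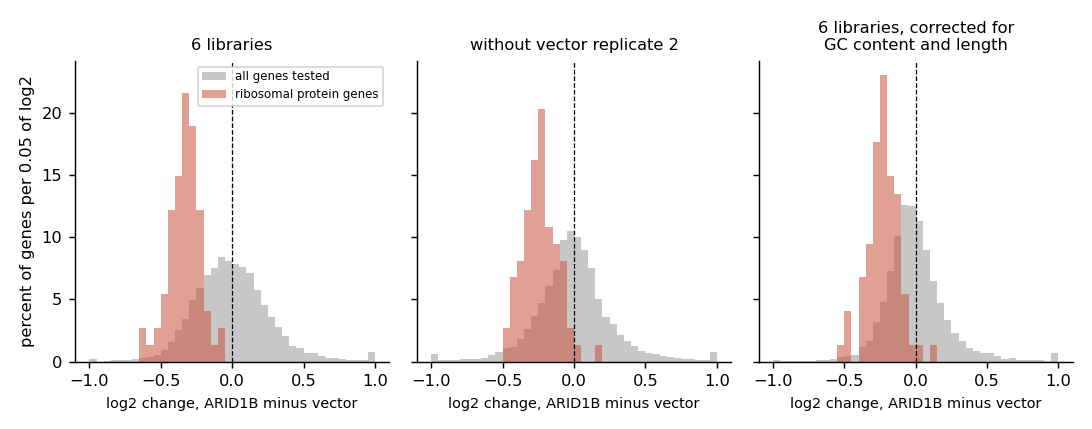
Percent of genes per 0.05 of log2 change, ARID1B minus vector, for the ribosomal protein genes and for all genes tested, with changes beyond 1 drawn in the outermost bins. The members centre on -0.34, -0.23 and -0.23 in the 3 fits and all genes on -0.02, -0.01 and -0.02.

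Ribosomal genes outside the symbol rule were lower by estimate but less clear of the vector libraries. FAU, which encodes a ubiquitin-like protein fused to a small-subunit protein, was at 19.0, 34.0 and 20.7 FPKM in the vector libraries against 19.9, 18.9 and 18.3 FPKM in the ARID1B libraries. Vector replicate 2 held most of the difference in FAU, whose log2 change went from -0.31 to -0.06 without it. The change of FAU was also -0.06 after the correction of all libraries for GC content and length. Of the 8 paralogs listed, RPL3L and RPL10L were at 0 in all libraries. The 6 tested (RPL22L1 at -0.25, RPL26L1 at -0.23, RPL36AL at -0.21, RPL39L at -0.28, RPL7L1 at -0.04 and RPS27L at -0.03) all overlapped between the groups, and their median of -0.22 became 0.02 without vector replicate 2. For RPL22L1, the paralog that can replace RPL22, the libraries were at 15.6, 23.5 and 17.7 against 14.7, 17.1 and 15.0 FPKM.

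Elongation factors and other TOP mRNAs came next. Of 19 tested, 17 had a negative estimate (52.4% of all genes), 9 were lower in every ARID1B library (11.1% of all genes) and 0 passed in limma, with a median of -0.20, or -0.29 without vector replicate 2. GNB2L1, which encodes the ribosome-bound scaffold RACK1, was at 78.7, 88.5 and 79.9 FPKM in the vector libraries and 64.5, 62.4 and 60.9 FPKM in the ARID1B libraries. EIF3F, a subunit of the initiation factor eIF3, was at 25.8, 25.9 and 26.3 against 19.6, 20.5 and 19.2 FPKM. Both were clear of the vector range, with log2 changes of -0.39 and -0.38 and adjusted p of 0.339 and 0.313 in limma. EEF2, the translocase of elongation, and EIF4B, a helicase cofactor, were named after their values were seen. Both passed as lower without vector replicate 2, at -0.64 (adjusted p = 0.0390 in limma) and -0.60 (adjusted p = 0.0426), where 1.91% of all genes did. With all libraries their log2 changes were -0.51 and -0.28 (adjusted p = 0.356 and 0.741 in limma). For EIF4B vector replicate 2, at 45.0 FPKM, lay below every ARID1B library, at 56.2, 61.6 and 57.4 FPKM.

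Among genes that make ribosomes the estimates went both ways. Of 40 genes of ribosome assembly, 16 had a positive and 24 a negative estimate, 2 were higher and 3 lower in every ARID1B library, shares that do not exceed the 9.44% and 11.1% of all genes, and the median of -0.07 turned to 0.17 without vector replicate 2. DDX21, a helicase of rRNA transcription and processing, was at 26.4, 26.8 and 25.7 FPKM in the vector libraries and 39.0, 34.9 and 40.4 FPKM in the ARID1B libraries, a log2 change of 0.52 (adjusted p = 0.285 in limma). The change of DDX21 was 0.34 after the correction of all libraries for GC content and length. NOB1, the endonuclease that finishes 18S rRNA, was at 11.3, 15.1 and 11.6 against 9.96, 8.63 and 9.34 FPKM. DDX21 was thus higher and NOB1 lower in every ARID1B library. SBDS, a factor of large-subunit release named after its value was seen, passed as higher without vector replicate 2 (0.56, adjusted p = 0.0476 in limma), where 1.20% of all genes did. With all libraries the log2 change of SBDS was 0.31 (adjusted p = 0.676 in limma). Its vector replicate 2, at 61.7 FPKM, lay above every ARID1B library, at 56.1, 51.2 and 53.6 FPKM. Of 18 genes of the RNA polymerase I machinery, 5 had a positive and 13 a negative estimate, with a median of -0.13, or 0.05 without vector replicate 2. UBTF, its upstream binding factor, was at -0.32 and TWISTNB, a subunit of the polymerase, at 0.29, both without overlap of the groups.

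Of 18 genes of mTOR and MYC control, 10 had a positive and 8 a negative estimate, and 0 passed in limma. EIF4EBP1, the translation repressor that mTOR inactivates, was at 41.1, 60.9 and 44.9 FPKM in the vector libraries and 29.5, 31.0 and 29.8 FPKM in the ARID1B libraries. Its log2 change was -0.66 (adjusted p = 0.306 in limma), and -0.50 without vector replicate 2, where it passed (adjusted p = 0.0449), as did MNT, a MYC antagonist named after its value was seen (-0.48, adjusted p = 0.0433). With all libraries MNT was at -0.35 (adjusted p = 0.465 in limma), and 1.91% of all genes passed as lower without vector replicate 2. MXD1, another MYC antagonist, was at 1.18, 0.934 and 1.02 against 1.32, 1.73 and 1.41 FPKM, higher in every ARID1B library. After the correction of all libraries for GC content and length EIF4EBP1 stood at -0.32, MNT at -0.23 and MXD1 at 0.11.

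Around RPL5 and RPL11, 6 genes were tested, 3 with a positive and 3 with a negative estimate. GLTSCR2, a nucleolar partner of RPL11, was at 13.8, 11.7 and 13.7 FPKM in the vector libraries and 7.77, 9.29 and 7.67 FPKM in the ARID1B libraries. The groups of GLTSCR2 were well apart, at a log2 change of -0.61 (adjusted p = 0.285 in limma), and without vector replicate 2 it passed at -0.68 (adjusted p = 0.0403). Its log2 change was -0.32 after the correction of all libraries for GC content and length. MDM2, the ubiquitin ligase that free RPL5 and RPL11 bind, was at 6.73, 3.71 and 5.85 against 5.68, 8.13 and 7.06 FPKM, with overlap. Of 9 chaperones and kinases directed at ribosomal proteins, 7 had a negative estimate and all overlapped between the groups, with ZNF598, the ligase of collided ribosomes, at -0.25 and the histone chaperone NAP1L1 at -0.17. RPS6KA2, a kinase of the list named after its value was seen, passed as lower without vector replicate 2 (-0.80, adjusted p = 0.0431 in limma), where 1.91% of all genes did. With all libraries its log2 change was -0.13 (adjusted p = 0.938 in limma). Its vector replicate 2, at 2.35 FPKM, lay below every ARID1B library, at 6.01, 7.83 and 6.44 FPKM.

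The genes outside the rule whose 6 values ran most like the members' median profile were RPS23P8, HTRA1, PABPN1, SMARCD3 and COPG1, with Pearson correlations of 0.9976 to 0.9940 over the 6 libraries, given as a description since the 5 were picked for it from all genes tested. RPS23P8, a retrocopy named for RPS23, was at 8.47, 11.6 and 8.94 FPKM in the vector libraries and 6.88, 7.32 and 6.79 FPKM in the ARID1B libraries. HTRA1, a secreted protease, was at 62.2, 82.7 and 65.5 against 51.7, 55.8 and 49.9 FPKM. Each of the 5 had its highest value in vector replicate 2 and its ARID1B libraries below the vector libraries.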

How the data were processed

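RNA-seq of 3 vector and 3 ARID1B libraries was used. The authors deposited FPKM per gene; per the submitters' processing notes the build was hg19 and the tools were DESeq2, HTSeq 0.5.3p9 and TopHat2 2.0.11, with no role given. Groups came from the sample labels. Genes averaging 1 FPKM or more were tested with limma 3.58.1 (R 4.3.3, variance trend, two-sided) on log2(FPKM + 1), a pseudocount of 1 that understates changes of low genes, with Benjamini-Hochberg adjustment over all genes tested and a threshold of 0.05. Reads were recovered from the FPKM steps (all 10416 tested genes whole within 0.002 reads). GC content and length were those of the best-supported, shortest APPRIS principal transcript in GENCODE v29, found for 97.9% of tested genes, and were fitted per library by splines with 5 degrees of freedom. The fits and the recovery were tested on simulated data. The simulated libraries of the fits held independent noise per gene, with no GC or length trend and no outlying library. They therefore cannot show how well the correction removes such trends. The simulation of the recovery was given genes of few reads after a first version without them had failed. A common divisor of all 6 read numbers of a gene would make its recovered length and reads too small. Counting error is small: 70 of the 74 members tested held at least 10000 reads in every library. Members were named by role, by the 5 highest and lowest mean FPKM and log2 changes, or by passing the test; other genes by passing or, if none did, by the smallest p of their list. A few of the genes so named are left unreported. The members, lists and alternatives were chosen with earlier results of these data known. Python 3.11.15 and matplotlib 3.10.9 were used for tables and plots.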

Additional observations from a re-analysis of the deposited data

How the results depend on the processing

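The members' median log2 change was negative under every alternative run, between -0.40 and -0.23. Leaving out each library in turn gave medians from -0.40 to -0.23, with 0 members called each time. No member passed on a TPM scale, at a minimum mean of 5 FPKM, unfiltered, with 0.1 as the pseudocount, with median-ratio rescaling, quantile normalization (median -0.25), no variance trend or voom. Without vector replicate 2 and with the GC and length correction, 2 members passed. The difference in the members' share of summed FPKM, -1.24 percentage points, was -1.12 without mitochondrially encoded genes and -1.30 to -1.19 with each library left out.

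Over all genes 3 passed, 0 with no filter, 1 on a TPM scale, 1 with voom, 9 with the GC and length correction, 382 with that correction and without vector replicate 2, 0 without both libraries numbered 3, and 0 to 324 with each library left out, the highest without vector replicate 2. The cause was not tested. With the replicate number as a block 0 passed, as with the block and the correction, and the block changed no call of a member. Same-numbered libraries did not pair: their deviations correlated at -0.461, -0.431 and -0.171.

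Estimates turned positive, none past the threshold, for RPS27L (0.02 with quantile normalization), without vector replicate 2 for RPS26 (0.00, with a range of -0.41 to 0.00 over the libraries left out), RPS10 (0.18, range -0.24 to 0.18), RPL39L (0.05, range -0.50 to 0.05) and RPS27L (0.04, range -0.07 to 0.04), without vector or ARID1B replicate 2 for RPL7L1 (0.05 and 0.08, range -0.11 to 0.08), with the correction, block or not, for RPLP2 (0.02) and RPS10 (0.12), and with the correction and without vector replicate 2 for RPLP2 (0.06), RPL35 (0.03), RPS10 (0.23), FAU (0.02), ZNF598 (0.04), RPL7L1 (0.00), RPL39L (0.05) and RPS27L (0.01). With 3 libraries a group, the median SE of a member was 0.136 on the log2 scale, which limits single calls at changes of this size.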

Other observations

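Members were also grouped by position and disease. The 12 tested members on chromosome 19, RPS28, RPL28 and RPL13A among them, had a median log2 change of -0.47, and 11 were lower in every ARID1B library, while the 62 on other chromosomes had a median of -0.31 with 43 lower, where 11.1% of all genes were lower in every ARID1B library. The median GC content was 58.9% for the former and 48.8% for the latter, and their part in the difference was not tested. The 27 members with a snoRNA inside the gene in GENCODE v29, RPL13A and RPL3 among them, had a median of -0.35 and the other 47 of -0.31. The 45 members with a TOP tract at an annotated start had a median of -0.34 and the 15 without one there, RPS28 and RPS26 among them, of -0.31.

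Of 18 genes of Diamond-Blackfan anemia, an inherited failure of red cell formation, 17 were tested and 10, such as RPS19, were lower in every ARID1B library, a smaller share than the 73.0% of all members and above the 11.1% of all genes, with a median of -0.28. Of 6 members in wide use as reference genes of quantitative PCR, 5 (RPLP0, RPL13A, RPS14, RPL32 and RPL19) were lower in every ARID1B library, beside the same 73.0% and 11.1%, and RPS18 overlapped.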
